A study of Homo sapiens with 24 samples.

Results

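The genes described here are the enzymes that remove methyl groups from histone lysines and those that add them to lysine 4 of histone H3 (H3K4), together with the proteins that assemble with the H3K4 enzymes. They were listed by name and not by a measured value, but earlier results of these data were known when they were chosen. All 36 were found among the 60675 genes counted. Of these, 23 are lysine demethylases or related JmjC proteins (the KDM family, the KDM5 paralogs and HR among them) and 13 are KMT2 or SETD1 enzymes or subunits of their COMPASS complexes. RNA-seq counts were available for 24 libraries, 3 for each of 8 groups.

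Both cell lines were of kidney origin and were grown in the same serum-containing medium. ACHN is an established human renal carcinoma line, labelled as clear cell carcinoma, and HK2 is an immortalised human proximal tubule line. In each line the groups were shNC, which carries a non-targeting short hairpin RNA, shKDM5C, shYY1, and Dsh, in which both genes were knocked down. All groups, controls included, were stable lines made with lentiviral hairpin plasmids and puromycin. The Dsh cells were YY1-depleted cells infected again with a GFP-labelled KDM5C hairpin plasmid and selected by puromycin and green fluorescence, so they differ from shNC by a second infection as well. The labels do not say which hairpin was used or whether the replicates were separate cultures, so p-values measure the spread between these libraries. Within a line, the 3 knockdown comparisons share the same shNC libraries.

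Histone lysine methylation is reversible, and its position decides how it is read. Methylated H3K4 marks promoters and enhancers of active genes. It is written by COMPASS complexes, in which a KMT2 or SETD1 enzyme sits on a core of WDR5, RBBP5, ASH2L and DPY30, and it is removed by the flavin-dependent LSD enzymes and by the JmjC enzymes of the KDM5 family, of which KDM5C is the X-linked member. Other JmjC enzymes act on methylated H3K9, H3K27 or H3K36, marks that are written by other methyltransferases. YY1 is a zinc finger transcription factor that binds promoters and enhancers.

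Because YY1 was one of the depleted factors, the promoters of the member genes were searched for its core motif ATGGCGG on both strands (CCGCCAT on the opposite strand). RefSeq windows on GRCh38.p14, from 250 bases before to 50 bases after a gene's start, were matched for 30 of the 36 genes, and HR, RIOX1, RIOX2, SETD1B, ASH2L and DPY30 had none. The core lay in the windows of 6 members, which is 20% of the members with a window, against 6.66% of all 27305 symbols with windows. Counted by window, it lay in 13.6% of the 44 member windows and in 5.55% of all 35116. The background was not limited to genes expressed in these lines, and the difference was not tested. The sites are printed 5′ to 3′ along the gene's own strand with the motif in capitals, since they show that the motif of the second depleted factor sits close to the start of the first targeted gene.
KDM5C, chrX:53225179-53225207, minus strand: gacaaaccaagATGGCGGcggcggcgctg
PHF8, chrX:54044433-54044461, minus strand: gccctcataagATGGCGGtcgccttggtt
PHF8, chrX:54044634-54044662, minus strand: cctcgcctaagATGGCGGcttctccgcct
KMT2B, chr19:35718008-35718036, plus strand: acggtgccaagATGGCGGcggcggcgggc
KDM2A, chr11:67119276-67119304, plus strand: acgggttcaaaATGGCGGcggctgcttca
CXXC1, chr18:50287799-50287827, minus strand: cgataagcaagATGGCGGcgcctgagggg
KMT2E, chr7:105014181-105014209, plus strand: cgccgccgccgCCGCCATtttcccagagc

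In KDM5C the motif lay 12 bases downstream of the start, and in KMT2B, PHF8 and KDM2A a site lay 17, 24 and 25 bases downstream. CXXC1 and the further PHF8 site held it 124 and 178 bases upstream, and KMT2E held it on the opposite strand 13 bases upstream. After YY1 knockdown, KDM5C was called higher in both lines, though in HK2 not in a fit of all 4 groups. Among the other 5 genes with the motif, KMT2B was called higher in ACHN, and KMT2E and PHF8 were called lower in HK2. KDM2A and CXXC1 were called in neither line. Of all genes, 24.2% were called higher and 24.5% lower in ACHN shYY1, and 14.3% and 14.7% in HK2 shYY1. The PHF8 call (log2 -0.22 ± 0.0674, adjusted p = 0.0159) was lost without HK2 shNC replicate 1 or 3 (adjusted p = 0.075 and 0.055). A match in a window is a description of sequence and not a measured binding site.

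Libraries held between 17910371 and 24272298 counts in ACHN and between 15926561 and 18755684 in HK2. HK2 shKDM5C replicate 1 stood apart from its group. Its counts differed from those of replicates 2 and 3 by chi-square values of 129 and 123 per degree of freedom, against 3.2 between replicates 2 and 3 and 1.94 to 6.97 within the other groups. In that library KMT2A was at 482.2 CPM, counts scaled to library size, against 242.8 and 249.7, and MEN1 at 24.3 against 47.8 and 50.8. Results that use HK2 shKDM5C are therefore given with and without it. Of 6 kidney epithelium markers, at least 5 reached a mean of 1 CPM in every group. Their sum was 2192.1 to 2229.1 CPM in ACHN shNC and 1507.3 to 1667.3 in ACHN Dsh. In HK2 it was 2719.9 to 2825.5 in shNC and 1320.5 to 1445.3 in Dsh, so it was lower in both double knockdowns. In ACHN shKDM5C and shYY1 it was above control, at 2488.9 to 2565.0 and 2600.6 to 2685.7 CPM. In HK2 shYY1 it was below control, at 1829.9 to 1946.3 CPM, and HK2 shKDM5C spanned 2334.6 to 2835.4. Not every marker followed the sum, as PAX8 had its highest ACHN value, 746.3 CPM, in a Dsh library. However, the proximal tubule markers LRP2, CUBN, SLC34A1 and AQP1 stayed at or below 1.15 CPM in every library. The 4 clear cell carcinoma markers summed to between 7.71 and 8.54 CPM in ACHN shNC, with CA9 near 0, and to between 260.4 and 273.9 CPM in ACHN Dsh, nearly all of it ANGPTL4. Of 9 fibroblast, endothelial and leukocyte markers, COL1A1 alone reached a group mean of 1 CPM in ACHN and in most HK2 groups, and VWF reached at most 1.27 CPM in an ACHN library. In ACHN their sum was 544.5 to 595.2 CPM in shNC and 47.5 to 51.7, 153.9 to 160.0 and 127.1 to 142.9 CPM in shKDM5C, shYY1 and Dsh. Whether these marker shifts play a part in the member changes was not tested.

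The knockdowns were visible in their own transcripts. YY1 stood at 132.7, 136.5 and 140.5 CPM in ACHN shNC, at 78.4, 71.9 and 75.8 in ACHN shYY1 and at 89.6, 102.9 and 95.2 in ACHN Dsh, so that depletion was partial and was shallower in the double knockdown (log2 difference of Dsh from shYY1 0.35 ± 0.0575 SE, adjusted p = 5.36e-05). In HK2 it fell from 214.0, 215.3 and 202.8 CPM to 62.1, 68.7 and 63.4 in shYY1 and to 76, 75.5 and 73.1 in Dsh.

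Before any knockdown, most members were lower in the cancer line than in the tubule line. Comparing the shNC groups, 25 of 36 members were called lower in ACHN and 6 higher, where a call means an adjusted p under 0.05 in edgeR's quasi-likelihood test, with the Benjamini-Hochberg adjustment over all genes tested. Among all genes 38% were called lower and 38.6% higher. The median member log2 difference was -0.36 and that of all genes was 0.02. Line and any difference in culture or handling cannot be told apart in this comparison.

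The order of levels can be read per length, in RPKM, reads scaled to gene length and library size. In ACHN shNC, WDR5, the scaffold subunit of COMPASS, was highest at 23.7 ± 0.736 RPKM (SD, n = 3), followed by KDM1A, the H3K4 demethylase also called LSD1, at 20.1 ± 0.565, and KMT2E, a KMT2-family protein with no known methyltransferase activity, at 18.8 ± 0.44. From JMJD1C, SETD1A and MEN1, all at 11.2 RPKM, downwards most neighbours in the order overlapped in their libraries. KDM4C, KDM8, KDM7A and KDM4D lay below 1 RPKM, and HR was at 0.028. In HK2 shNC, KDM1A led at 35.3 ± 0.114 RPKM, before WDR5 at 29 ± 0.459 and KDM5C at 22.2 ± 0.331, and KDM7A was lowest at 0.371 ± 0.107.

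KDM5C itself ranked 17 among the members in ACHN and 3 in HK2. It stood at 69.8, 69.8 and 68.9 CPM in ACHN shNC against 193.0, 191.0 and 196.7 in HK2 shNC (log2 difference -1.44 ± 0.0401 SE, adjusted p = 2.8e-22). KMT2E showed the opposite difference, at 169.1, 174.0 and 177.2 CPM in ACHN against 72.9, 72.1 and 68.9 in HK2 (log2 1.32 ± 0.0422, adjusted p = 6.56e-21). HR, a JmjC corepressor of H3K9 named for the hairless phenotype, separated the lines most widely, with 3, 5 and 6 counts in ACHN shNC and 436, 359 and 413 in HK2 shNC. KMT2C, which methylates H3K4 at enhancers, was higher in ACHN by 0.87 ± 0.042 on the log2 scale, whereas its paralog KMT2D was lower by -0.33 ± 0.034.

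Across the 6 comparisons with shNC, the double knockdown moved the most members in both lines. KDM5C, itself a knockdown target, is counted among the lower members in shKDM5C and Dsh. In ACHN, shKDM5C raised 14 of the 35 members tested and lowered 6, against 28.9% and 27.7% of all genes. With scaling to total counts in place of TMM these became 10 and 8. Of the 14, KDM5A, KDM3A, KDM3B, KDM8 and RIOX2 lost their call when single libraries were left out, and of the 6, KDM1B did. For ACHN shYY1 the counts were 9 higher and 7 lower, against 24.2% and 24.5%. For ACHN Dsh they were 19 higher and 10 lower, against 30.7% and 32%, so that 82.9% of the members tested were called where 62.6% of all genes were. The sizes were moderate: the median absolute log2 fold change in ACHN Dsh was 0.33 for members and 0.39 for all genes. HR was too low to be tested in ACHN, with 2 to 12 counts in each of its 12 libraries.

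In HK2, shYY1 raised 6 and lowered 8 of 36 members, against 14.3% and 14.7% of all genes, and with scaling to total counts 4 and 11. In Dsh 7 members were higher and 16 lower, against 25.5% and 24.3%, so that 63.9% were called where 49.8% of all genes were, and the median member log2 fold change was -0.14 where that of all genes was -0.00. HK2 shKDM5C gave 0 members higher and KDM5C alone lower, against 0.668% and 0.656% of all genes. Without replicate 1 the counts were 1 higher (KMT2C) and 4 lower (KDM1A, KDM5C, KDM2A and HR), against 11.5% and 10.9%. At an unadjusted p under 0.05 edgeR gave 2478 of all genes in the comparison with all 3 replicates, and DESeq2 called 0 members higher and 2 lower.

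**Figure D1:**
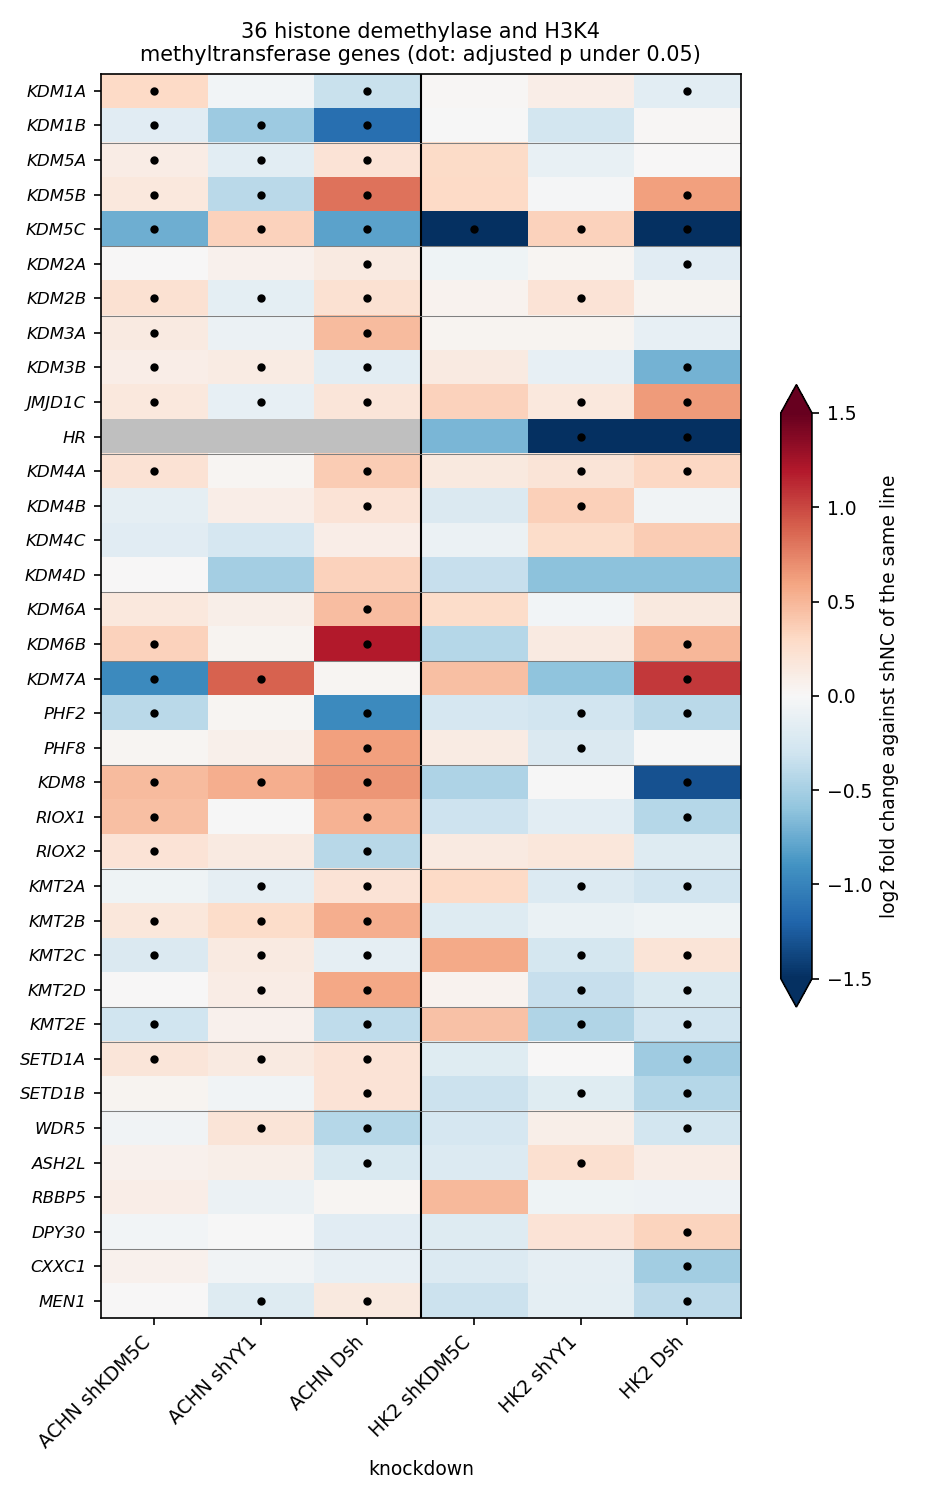
Each row is a member gene and each column a knockdown group, with colour giving the log2 fold change against shNC of the same line, from blue (lower) to red (higher), and a black dot marking an adjusted p under 0.05. Grey cells for HR in ACHN were not tested. The Dsh columns carry 29 dots of 35 genes in ACHN and 23 of 36 in HK2, and the HK2 shKDM5C column carries 1.

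The KDM5 family, the JmjC enzymes that remove di- and trimethylation from H3K4, did not move as a unit. KDM5C fell to 41, 43.4 and 41.8 CPM in ACHN shKDM5C and to 39.7, 40.7 and 40 in ACHN Dsh, changes of -0.73 ± 0.0472 and -0.80 ± 0.0543 on the log2 scale (adjusted p = 1.12e-12 and 3.24e-10). In HK2 it fell further, to 37.3, 68.4 and 67.4 CPM in shKDM5C and to 68.2, 65.8 and 72.2 in Dsh. No knocked-down library overlapped with a control library in either line. The HK2 shKDM5C change was -1.74 ± 0.228 with all replicates (adjusted p = 0.0184), -1.51 ± 0.0508 without replicate 1 (adjusted p = 1.26e-16), and lost its call when any of the other 5 libraries was left out (adjusted p between 0.0632 and 0.151).

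YY1 knockdown alone raised KDM5C in both lines. In ACHN shYY1 it reached 87.5, 87.6 and 91.9 CPM (log2 0.34 ± 0.0399, adjusted p = 1.14e-08), and in HK2 shYY1 260.2, 245.8 and 232.9 CPM (log2 0.35 ± 0.0506, adjusted p = 1.54e-05). All 6 libraries lay above the shNC libraries of their line, and the difference between the lines' effects was -0.00 ± 0.0947. It was the only member called higher in shYY1 in both lines.

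KDM5B rose in the double knockdown of both lines. Its levels were 92.1, 94 and 90.9 CPM in ACHN shNC, 99.2, 102.4 and 108.7 in shKDM5C, 69.3, 70.1 and 73.8 in shYY1 and 153.2, 172.3 and 163.9 in Dsh. The 4 ACHN groups did not overlap: shYY1 was lowest (log2 -0.40 ± 0.0399, adjusted p = 2.65e-10), shKDM5C slightly above control (0.16 ± 0.0413, adjusted p = 0.00229) and Dsh highest (0.82 ± 0.0509, adjusted p = 8.45e-11). In HK2, KDM5B was at 120.5, 127.6 and 128.5 CPM in shNC and 124.1, 125.3 and 122.9 in shYY1, which overlapped, and at 192.0, 188.8 and 190.5 in Dsh (log2 0.61 ± 0.0469, adjusted p = 2.43e-12). HK2 shKDM5C replicate 1 read 219.3 CPM, above every Dsh library, while replicates 2 and 3 read 122.5 and 118.6. The log2 change in that group was 0.30 ± 0.246 with replicate 1 and -0.06 ± 0.0513 without it, neither of them called.

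KDM5A, the founding member of the family and a partner of the retinoblastoma protein, changed little. In ACHN it was at 101.2, 105.7 and 106.6 CPM in shNC, 110.1, 117.1 and 114.0 in shKDM5C, 92.9, 96 and 96.3 in shYY1 and 117.2, 134.3 and 112.7 in Dsh. Its log2 changes there were 0.11 ± 0.039, -0.16 ± 0.0373 and 0.21 ± 0.0593 (adjusted p = 0.0142, 0.0007 and 0.00436), and the first lost its call without ACHN shNC replicate 1 or ACHN shKDM5C replicate 2 (adjusted p = 0.0759 and 0.0554). In HK2 no KDM5A comparison with shNC was called, and in Dsh the log2 difference was 0.01 ± 0.0537.

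**Figure D2:**
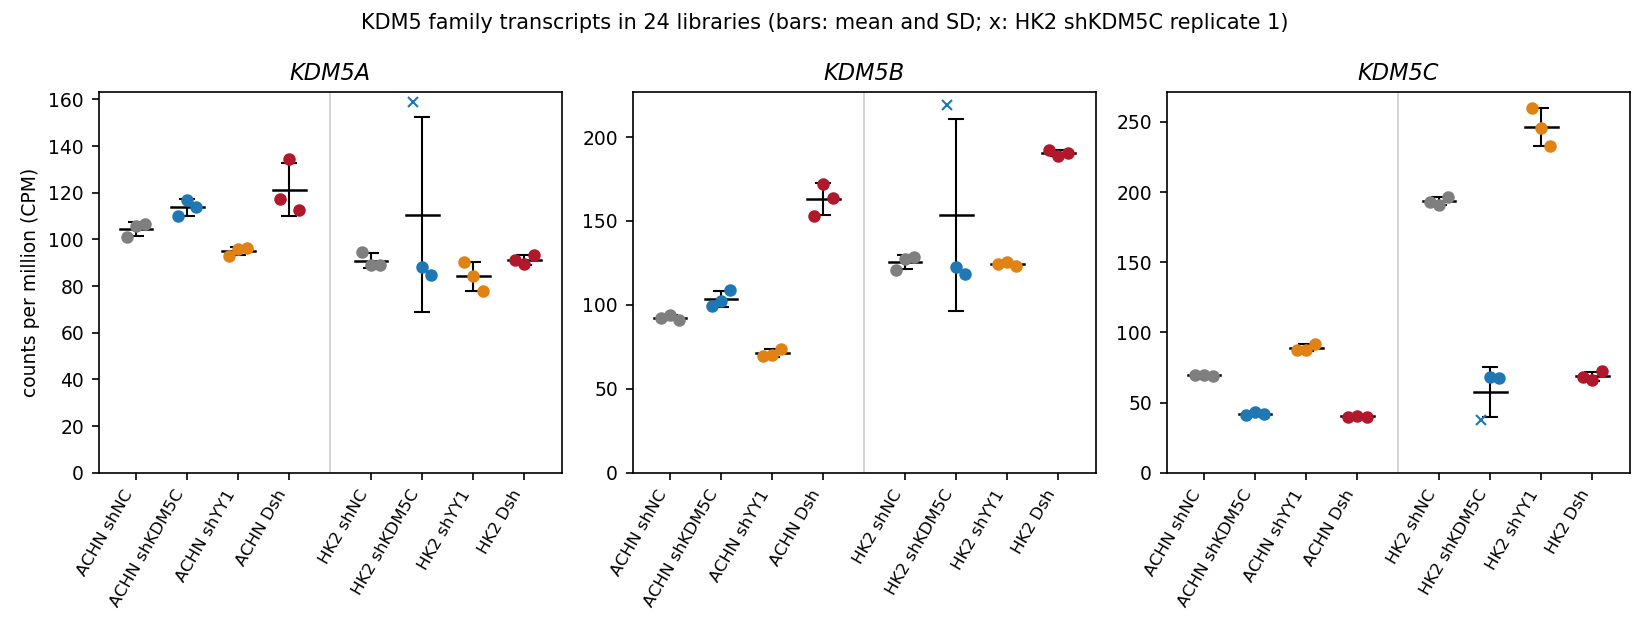
CPM of KDM5A, KDM5B and KDM5C, one panel each with its own axis from 0, in the 8 groups, with 1 point per library and black bars for the mean and SD of 3 libraries. A cross marks HK2 shKDM5C replicate 1, which reads high for KDM5A and KDM5B and low for KDM5C. KDM5B is highest in ACHN Dsh among the ACHN groups, at a mean of 163.1 CPM, and KDM5C is above control in both shYY1 groups.

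The LSD enzymes, which remove mono- and dimethylation from H3K4, were lower in ACHN Dsh. KDM1B was at 37.3, 42.3 and 38.2 CPM in ACHN shNC and fell to 26.4, 25.5 and 29.9 in shYY1 (log2 -0.55 ± 0.064, adjusted p = 7.71e-09) and to 16.7, 16.8 and 20 in Dsh (-1.13 ± 0.0847, adjusted p = 1.16e-09), the largest fall of any member in ACHN Dsh. Its fall in ACHN shKDM5C, -0.17 ± 0.0654, was called at an adjusted p of 0.0323 and lost without ACHN shNC replicate 2 or ACHN shKDM5C replicate 2 (adjusted p = 0.213 and 0.204). In HK2, where KDM1B started lower, at 22.3, 22.2 and 21.9 CPM, Dsh read 22.7, 21.7 and 22.5.

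KDM1A turned direction between the ACHN groups. It rose from 111.4, 105.8 and 110.9 CPM in shNC to 140.7, 130.2 and 134.1 in shKDM5C (log2 0.30 ± 0.039, adjusted p = 4.18e-07), stayed at 110.0, 106.3 and 107.4 in shYY1 and fell to 88.5, 88.4 and 84.8 in Dsh (-0.33 ± 0.0478, adjusted p = 7.61e-06). Neither called group overlapped with shNC. In HK2 Dsh it was lower by -0.16 ± 0.0466 (adjusted p = 0.00444).

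The H3K36 demethylases KDM2A and KDM2B moved by at most 0.23 on the log2 scale. KDM2B, also a subunit of a variant Polycomb complex, was higher in ACHN shKDM5C and Dsh by 0.23 in each, lower in ACHN shYY1 by -0.15 ± 0.0584 (adjusted p = 0.0385) and higher in HK2 shYY1 by 0.20 ± 0.0624 (adjusted p = 0.0211). Both shYY1 calls were lost when single libraries were left out: in ACHN without shNC replicate 1 or 3 or shYY1 replicate 2 or 3 (adjusted p between 0.0795 and 0.168), and in HK2 without shNC replicate 3 or shYY1 replicate 1 (0.136 and 0.086). KDM2A was higher in ACHN Dsh by 0.13 ± 0.0495 (adjusted p = 0.0313) and lower in HK2 Dsh by -0.17 ± 0.0516 (adjusted p = 0.00616). Those calls too were lost without ACHN shNC replicate 1 or 2 or ACHN Dsh replicate 3 (adjusted p between 0.0834 and 0.156) and without HK2 Dsh replicate 2 (0.059).

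HR gave the largest changes of any member, all in HK2. It stood at 24.3, 20.1 and 21.5 CPM in HK2 shNC, at 10.8, 15.3 and 15 in shKDM5C, at 5.73, 4.46 and 3.84 in shYY1 and at 0.655, 1.47 and 1.49 in Dsh, which is 11, 25 and 26 counts. The 4 groups did not overlap. The log2 change was -2.23 ± 0.144 in shYY1 (adjusted p = 1.14e-10) and -4.17 ± 0.19 in Dsh (adjusted p = 8.38e-18), and Dsh was also below shYY1 (-1.94 ± 0.305, adjusted p = 1.28e-05). In shKDM5C it was -0.68 ± 0.179 (adjusted p = 0.161) with all replicates and -0.54 ± 0.115 (adjusted p = 0.00109) without replicate 1.

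Among the KDM3 enzymes, which remove mono- and dimethylation from H3K9, KDM3B was lower in HK2 Dsh. It read 148.9, 139.6 and 138.9 CPM in HK2 shNC, 140.0, 124.4 and 129.1 in shYY1 and 91, 82.8 and 86.3 in Dsh (log2 -0.71 ± 0.0525, adjusted p = 9.54e-13), with no overlap between Dsh and any other HK2 group. In ACHN its Dsh change was -0.16 ± 0.048 (adjusted p = 0.00597). JMJD1C, a related protein of this subfamily, moved the other way, from 124.5, 133.8 and 126.6 CPM in HK2 shNC to 207.9, 198.4 and 191.0 in Dsh (0.64 ± 0.0489, adjusted p = 1.86e-12), and by 0.18 ± 0.0562 in ACHN Dsh (adjusted p = 0.00919). KDM3A, a hypoxia-inducible enzyme, was higher in ACHN Dsh by 0.47 ± 0.0589 (adjusted p = 1.43e-06), and in HK2 Dsh its difference was -0.12 ± 0.0576 (adjusted p = 0.0939).

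The KDM4 enzymes act on trimethylated H3K9 and H3K36. KDM4A was higher in the double knockdown of both lines, by 0.38 ± 0.0597 in ACHN and 0.31 ± 0.0555 in HK2 (adjusted p = 1.75e-05 and 1.84e-05). KDM4B led the members higher in HK2 shYY1, where it rose from 60.2, 51.9 and 56.9 to 79, 69.7 and 68.8 CPM (0.36 ± 0.071, adjusted p = 0.000421). In HK2 Dsh it read 53.8, 50 and 58.2 CPM, overlapping control. KDM4C and KDM4D, both under 11 CPM in every library, passed the test in no comparison of a knockdown with shNC. Of the exonic bases, 32.1% in KDM4C and 8.97% in KDM4A lie in other genes' exons. Counting did not use strand, so reads from those bases could not be told apart by gene.

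KDM6A and KDM6B remove di- and trimethylation from H3K27, the mark that Polycomb writes. KDM6B rose most of all members in ACHN Dsh, from 26.2, 23.9 and 25.1 CPM in shNC to 54.6, 56.3 and 61.2 (log2 1.19 ± 0.0679, adjusted p = 2.36e-11). It was at 34.1, 28.4 and 33.4 in ACHN shKDM5C (0.34 ± 0.0717, adjusted p = 0.00022) and at 24.9, 27 and 26.2 in shYY1, which overlapped control. In HK2 Dsh it rose from 36.8, 32.3 and 35.1 to 46.8, 49.7 and 50.2 CPM (0.50 ± 0.0733, adjusted p = 9.71e-07). HK2 shKDM5C read 16.1, 32.2 and 28.9 CPM, with replicate 1 the low one, and was not called with it or without it (adjusted p = 0.432 and 0.151). The X-linked KDM6A, also a subunit of KMT2C and KMT2D complexes, was higher in ACHN Dsh by 0.46 ± 0.0852 (adjusted p = 0.000107).

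KDM7A, PHF2 and PHF8 carry a PHD finger that binds methylated H3K4 and act on lower methylation states of H3K9 or H3K27. KDM7A was pushed in opposite directions by the single knockdowns in ACHN, from 8.02, 6.47 and 7.23 CPM in shNC to 3.01, 4.76 and 3.49 in shKDM5C (log2 -0.96 ± 0.16, adjusted p = 1.4e-05) and to 14.1, 13.4 and 13.2 in shYY1 (0.88 ± 0.104, adjusted p = 9.59e-09). In ACHN Dsh it was back among the controls, at 6.42, 9.16 and 6.74 CPM. In HK2 it was at 2.73, 4.65 and 3.13 CPM in shNC and 7.02, 7.78 and 7.01 in Dsh (1.06 ± 0.202, adjusted p = 5.19e-05), the largest rise of a member there.

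PHF2 fell in the double knockdown of both lines. In ACHN it went from 42.9, 42.2 and 44.5 CPM to 33.2, 31.8 and 33.5 in shKDM5C (log2 -0.40 ± 0.0558, adjusted p = 9.55e-07) and to 21.2, 21.4 and 23.8 in Dsh (-0.96 ± 0.0708, adjusted p = 9.27e-10), with shYY1 at 42.4, 46.7 and 45.5. In HK2 it was at 52.8, 54.5 and 49.3 in shNC, 43.6, 42.5 and 42.4 in shYY1 (-0.29 ± 0.069, adjusted p = 0.00304) and 41.5, 40.5 and 36.5 in Dsh (-0.40 ± 0.0725, adjusted p = 3.15e-05). PHF8 instead rose in ACHN Dsh, from 19.4, 17.2 and 16.8 CPM to 27.6, 27.1 and 27.4 (0.62 ± 0.0804, adjusted p = 2.01e-06), and neither single knockdown was called for it there.

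**Figure D3:**
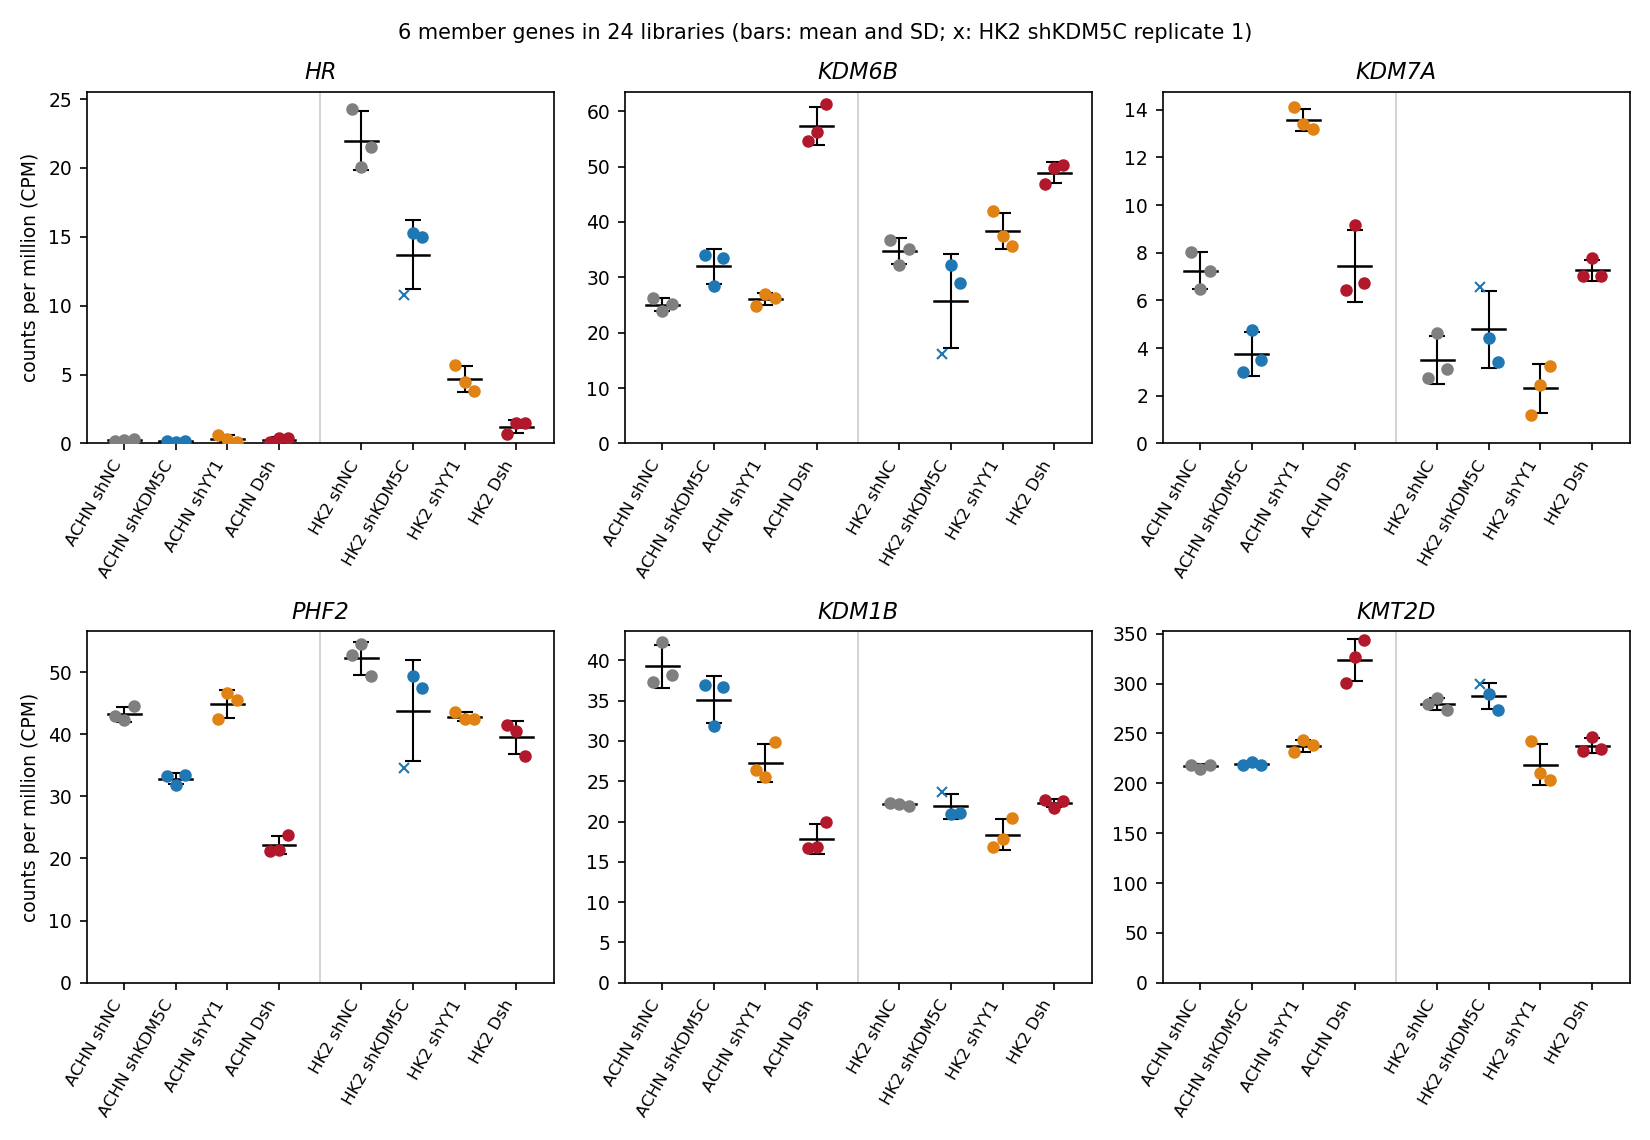
CPM of HR, KDM6B, KDM7A, PHF2, KDM1B and KMT2D in the 8 groups, with 1 point per library, black bars for the mean and SD of 3 libraries and a cross for HK2 shKDM5C replicate 1. Each axis starts at 0. HR steps down through the HK2 groups from a mean of 22 to 1.21 CPM, KDM7A is lowest in ACHN shKDM5C and highest in ACHN shYY1 among the ACHN groups, and KDM6B and KMT2D are highest in ACHN Dsh.

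Of the remaining JmjC proteins, KDM8 moved in opposite directions in the lines. It was at 3.75, 3.13 and 3.67 CPM in ACHN shNC, 5.85, 3.94 and 4.88 in shKDM5C, 4.55, 5.36 and 5.71 in shYY1 and 5.61, 5.13 and 5.97 in Dsh. The log2 changes were 0.47 ± 0.171, 0.54 ± 0.16 and 0.66 ± 0.158 (adjusted p = 0.0222, 0.00506 and 0.00129), and the first was lost without ACHN shNC replicate 2 or ACHN shKDM5C replicate 1 (adjusted p = 0.0929 and 0.158). In HK2 it went from 4.68, 5.15 and 5.99 CPM in shNC to 2.14, 2.12 and 2.07 in Dsh (-1.31 ± 0.227, adjusted p = 1.41e-05). A share of 14.5% of its exonic bases is held by another gene as well.

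RIOX1 and RIOX2 are ribosomal oxygenases, JmjC proteins that hydroxylate ribosomal proteins. RIOX1 rose from 12.4, 13.3 and 13.7 CPM in ACHN shNC to 18.7, 16.3 and 18.9 in shKDM5C (0.45 ± 0.0872, adjusted p = 0.000105) and to 18.7, 17.8 and 20 in Dsh (0.52 ± 0.0914, adjusted p = 6.18e-05), and fell in HK2 Dsh by 0.43 on the log2 scale (adjusted p = 0.00075). RIOX2 was at 25.7, 29.3 and 22.7 CPM in ACHN shNC, 31.2, 29.8 and 29.4 in shKDM5C, 30.7, 27.8 and 28.6 in shYY1 and 20.7, 18.4 and 19.3 in Dsh. Its ACHN Dsh change was -0.42 ± 0.093 (adjusted p = 0.000714), and its rise in shKDM5C of 0.21 ± 0.0753 (adjusted p = 0.0202) was lost without ACHN shNC replicate 1 or 3 or ACHN shKDM5C replicate 1 (adjusted p between 0.0521 and 0.169). RIOX2 shares 27.6% of its exonic bases with CRYBG3.

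Several H3K4 methyltransferases moved in opposite directions in the lines. In ACHN Dsh 5 of the 6 KMT2 and SETD1 enzymes were called higher and KMT2C lower, where 30.7% of all genes were called higher and 32% lower. In HK2 Dsh 4 of the 6 were called lower, KMT2C higher, and KMT2B was not called (-0.07 ± 0.0603), where 25.5% of all genes were called higher and 24.3% lower. KMT2A, KMT2D, SETD1A and SETD1B were each higher in ACHN Dsh and lower in HK2 Dsh. The difference between the lines' effects was called for all 6 enzymes and for 46% of all genes.

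KMT2D, which with KMT2C monomethylates H3K4 at enhancers, showed the widest split. It was at 217.9, 214.5 and 218.2 CPM in ACHN shNC, 218.5, 221.7 and 218.2 in shKDM5C, 231.3, 243.1 and 238.9 in shYY1 and 301.1, 327.0 and 343.4 in Dsh, a rise of 0.58 ± 0.0492 (adjusted p = 7.28e-09) in the last. In HK2 it was at 279.6, 285.1 and 274.0 in shNC, 242.4, 210.1 and 203.8 in shYY1 (-0.35 ± 0.0572, adjusted p = 5.71e-05) and 232.3, 246.3 and 234.6 in Dsh (-0.23 ± 0.0435, adjusted p = 6.06e-05). The Dsh groups lay on opposite sides of their controls without overlap. KMT2B rose in ACHN from 56.2, 54.6 and 54.1 to 67.5, 65.4 and 70.6 CPM in shYY1 (0.28 ± 0.0462, adjusted p = 4.37e-06) and to 77.5, 79 and 83.8 in Dsh (0.54 ± 0.0532, adjusted p = 5.02e-08).

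SETD1A and SETD1B, which form the complexes for most trimethylated H3K4, fell in HK2 Dsh by 0.53 and 0.43 on the log2 scale (SE 0.0594 and 0.0513, adjusted p = 7.45e-09 and 2.42e-08) and rose in ACHN Dsh by 0.21 each (SE 0.0531 and 0.0554). The changes of KMT2C were small in the double knockdown: -0.14 ± 0.0578 in ACHN (adjusted p = 0.049, with overlapping libraries) and 0.19 ± 0.0601 in HK2 (adjusted p = 0.0109). The ACHN call was lost when any shNC library or ACHN Dsh replicate 1 or 3 was left out (adjusted p between 0.0849 and 0.249), and the HK2 call without HK2 Dsh replicate 3 (0.114). KMT2E fell in the double knockdown of both lines. It read 138.9, 142.6 and 143.9 CPM in ACHN shKDM5C (-0.30 ± 0.0345, adjusted p = 5.17e-08) and 132.1, 138.9 and 130.3 in ACHN Dsh (-0.38 ± 0.0456, adjusted p = 8.02e-07). In HK2 it fell to 55.8, 49.7 and 51.2 in shYY1 (-0.45 ± 0.0655, adjusted p = 1.71e-05) and 60.2, 58.8 and 55.4 in Dsh (-0.29 ± 0.0612, adjusted p = 0.000218).

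Among the COMPASS subunits, WDR5 fell in the double knockdown of both lines. It was at 86.2, 83.4 and 88.7 CPM in ACHN shNC, 102.4, 98.1 and 98.8 in shYY1 (log2 0.19 ± 0.0385, adjusted p = 8.35e-05) and 64.5, 59.1 and 68.4 in Dsh (-0.43 ± 0.0568, adjusted p = 2.62e-06). In HK2 it was at 106.6, 103.4 and 105.8 in shNC and 82.1, 86.5 and 91.9 in Dsh (-0.27 ± 0.0542, adjusted p = 0.000106). ASH2L rose from 39.9, 41.3 and 41.3 to 47.7, 48.6 and 48.5 CPM in HK2 shYY1 (0.24 ± 0.0678, adjusted p = 0.00907) and fell in ACHN Dsh by 0.23 on the log2 scale (adjusted p = 0.0243), a call lost without ACHN shNC replicate 1 or 3 or ACHN Dsh replicate 1 (adjusted p between 0.0552 and 0.163). RBBP5 was called in no comparison of a knockdown with shNC. DPY30 was called higher in HK2 Dsh (0.33 ± 0.0956, adjusted p = 0.00502), but 50.5% of its exonic bases lie in exons of MEMO1.

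CXXC1, the CpG-binding subunit of the SETD1 complexes, was lower in HK2 Dsh by -0.52 ± 0.0857 (adjusted p = 6.22e-06), and in ACHN Dsh its difference was -0.12 ± 0.0614 (adjusted p = 0.101). MEN1 encodes menin, which tethers KMT2A and KMT2B complexes. It read 46.1, 47.2 and 49 CPM in ACHN shNC, 43, 45 and 38.1 in shYY1 (-0.19 ± 0.0573, adjusted p = 0.00509) and 52.4, 49 and 56.5 in Dsh (0.15 ± 0.0627, adjusted p = 0.0454), of which the last overlapped control. The shYY1 call was lost without ACHN shYY1 replicate 3 (adjusted p = 0.0665), and the Dsh call without any shNC library or without Dsh replicate 1 or 3 (adjusted p between 0.0521 and 0.192). In HK2 Dsh it was lower by -0.39 ± 0.0694 (adjusted p = 1.86e-05).

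The double knockdown was also compared with each single knockdown. KDM5C, itself a knockdown target, is counted among the lower members in both comparisons of Dsh with shYY1. ACHN Dsh had 13 members higher and 8 lower than ACHN shKDM5C, against 31.6% and 30.9% of all genes, and 17 higher and 11 lower than ACHN shYY1, against 32% and 32.7%. KDM5C itself differed between ACHN Dsh and shKDM5C by -0.06 ± 0.0621 (adjusted p = 0.402). HK2 Dsh had 8 members higher and 16 lower than HK2 shYY1, against 24.8% and 22.9%. Against HK2 shKDM5C it had 0 higher and 2 lower (KDM3B and HR), with 6.26% and 5.59% of all genes, and 4663 genes at an unadjusted p under 0.05. DESeq2 called 2 members higher and 3 lower there. Without HK2 shKDM5C replicate 1 the counts were 7 and 15, against 22.2% and 21%. The call of KDM3B was lost without any single Dsh library (adjusted p between 0.0841 and 0.0957).

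An interaction term compared Dsh with what adding both single log2 changes would give. Dsh cells were also infected a second time. Their mean YY1 level was above that of shYY1 cells, at 95.9 CPM against 75.4 in ACHN and 74.9 against 64.7 in HK2. The part of these differences in the interactions was not tested. In ACHN the interaction was called above the sum for 11 of 35 members and below for 9, against 26.8% and 28.8% of all genes. The 9 include KDM5C, itself a knockdown target. With scaling to total counts 16 members lay above the sum and 8 below. The largest interaction was that of KDM5B: the single effects summed below 0, yet Dsh rose, with a value of 1.04 ± 0.0675 (adjusted p = 1.58e-12). KDM6B exceeded the sum by 0.79 ± 0.102 (adjusted p = 3.33e-07), and RIOX2 fell short of it by 0.79, with an interaction of -0.79 ± 0.113 (adjusted p = 1.54e-06). KDM1A (-0.61 ± 0.0595), PHF2 (-0.62 ± 0.0895) and WDR5 (-0.60 ± 0.07) also lay below the sum. For KDM7A, whose single effects opposed each other, the interaction was 0.08 ± 0.212 (adjusted p = 0.78).

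**Figure D4:**
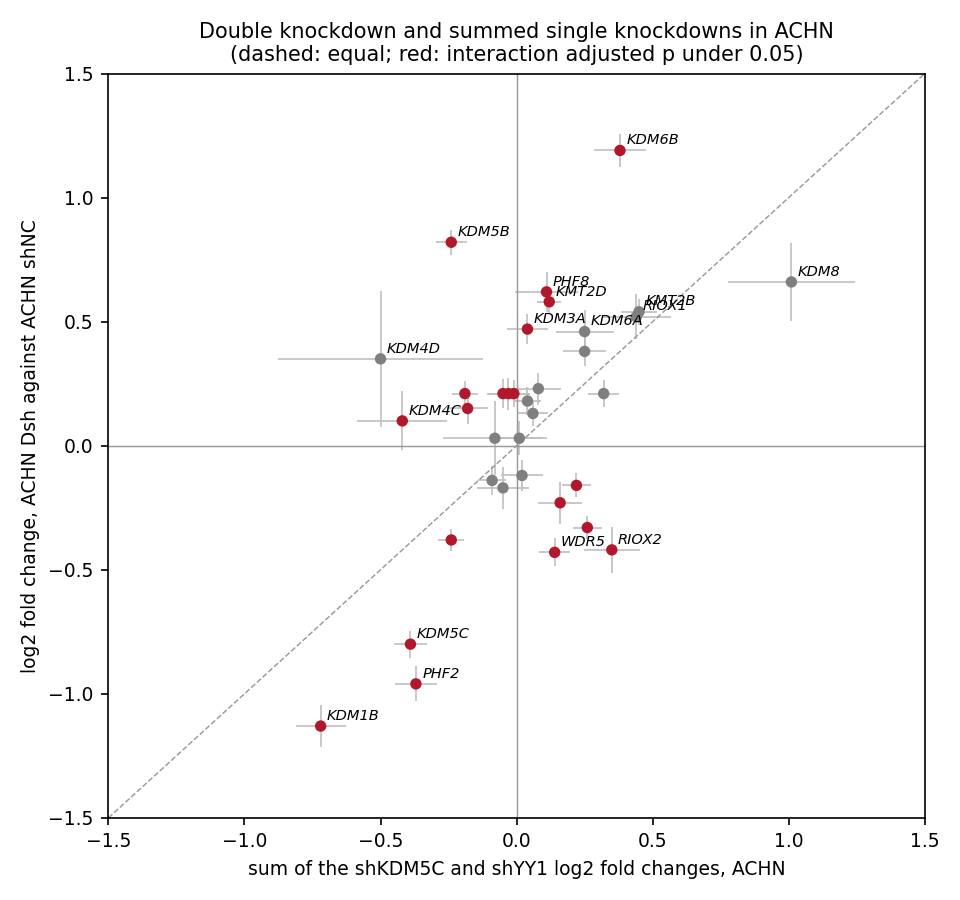
Each point is 1 of 35 members in ACHN, with the sum of the shKDM5C and shYY1 log2 fold changes on the horizontal axis, the Dsh log2 fold change on the vertical axis and bars for the SE. On the dashed line both are equal, and red points have an interaction adjusted p under 0.05. KDM5B and KDM6B lie above the line and RIOX2, WDR5 and PHF2 below it.

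In HK2 the interaction was called for 3 of 36 members, all below the sum, against 5.21% of all genes above and 4.4% below. HR was at -1.27 ± 0.353 (adjusted p = 0.0402), KDM3B at -0.73 ± 0.164 (adjusted p = 0.0156) and RIOX2 at -0.50 ± 0.143 (adjusted p = 0.0467). Without HK2 shKDM5C replicate 1 the counts were 4 above (KDM5B, JMJD1C, KDM6B and KDM7A) and 9 below, against 15% and 13.7%, with HR at -1.39 ± 0.282 and KDM5B at 0.69 ± 0.0705 (adjusted p = 0.00034 and 1.05e-08). These 9 include KDM5C, itself a knockdown target (-0.32 ± 0.0773, adjusted p = 0.00244). With all replicates 0 members lay above the sum, 4228 genes had an unadjusted p under 0.05 and DESeq2 called 1 member above. Leaving out any of the other 11 libraries took the HR call away (adjusted p between 0.0542 and 0.108). All but HK2 shKDM5C replicates 1 and 3 did so for RIOX2 (0.0756 to 0.129).

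Tested directly, Dsh acted differently in ACHN and HK2 on 28 of 36 members, where 46% of all genes were called. The effect was higher in ACHN for 21 and lower for 7, against 23.3% and 22.7% of all genes. These counts include HR, which could not be tested within ACHN, and without it they were 27 of 35, 20 and 7. The 21 also include KDM5C, itself a knockdown target. Members called in both lines included KDM5B, JMJD1C, KDM4A and KDM6B, higher in each, and KDM1A, KDM5C, KDM3B, PHF2, KMT2E and WDR5, lower in each. Another 8 were higher in ACHN and lower in HK2 (KDM2A, KDM8, RIOX1, KMT2A, KMT2D, SETD1A, SETD1B and MEN1), and KMT2C was lower in ACHN and higher in HK2. Of these, the calls of KDM2A and KMT2C in both lines and of MEN1 in ACHN were lost when single libraries were left out. The depth of the knockdown differed as well, since the KDM5C change was 0.71 ± 0.0711 less negative and the YY1 change 0.99 ± 0.0729 less negative in ACHN on the log2 scale. Its part in the other differences was not tested.

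**Figure D5:**
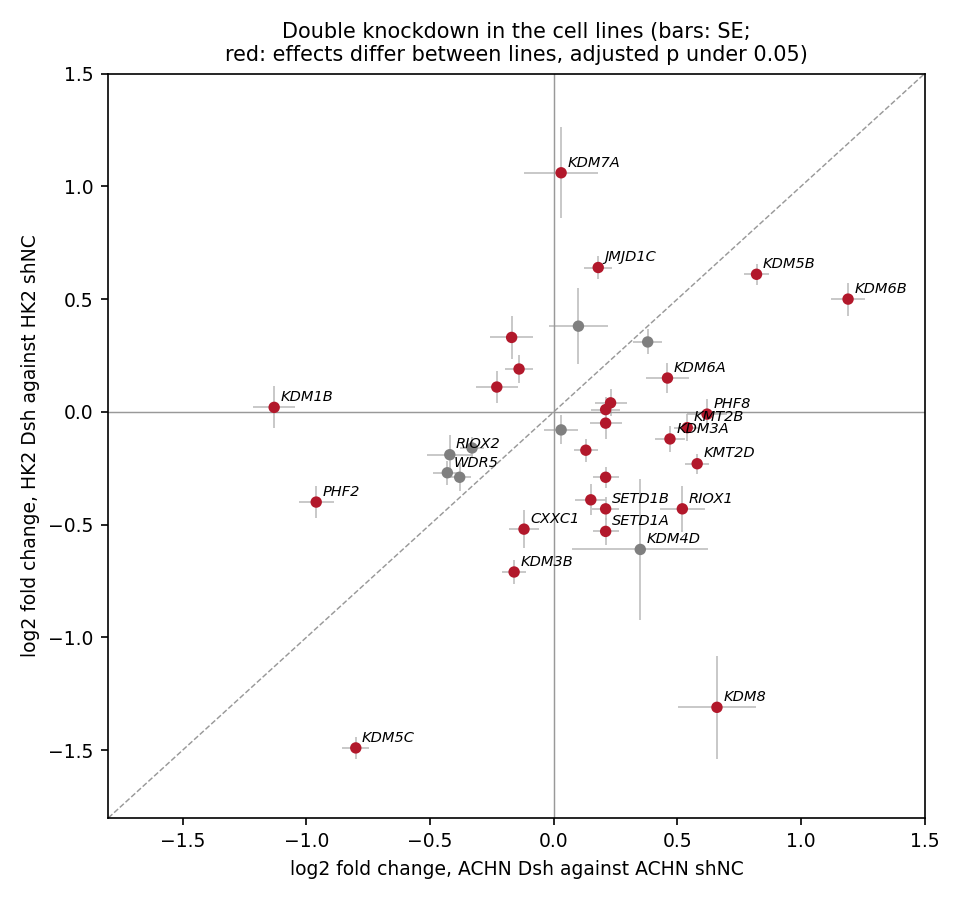
Each point is 1 of 35 members, with the ACHN Dsh log2 fold change against shNC on the horizontal axis, the HK2 one on the vertical axis and bars for the SE. The dashed line marks equal effects, and red points have effects that differ between the lines at an adjusted p under 0.05. KDM5B and KDM6B are at the upper right, KDM5C and PHF2 at the lower left, and KDM8, KMT2D, SETD1A and SETD1B at the lower right. HR, tested in HK2 alone, is not drawn.

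The single knockdowns differed between lines for fewer members. The shYY1 effect was higher in ACHN for 9 members and lower for 5, against 16.6% and 16.5% of all genes. The 9 include HR, whose ACHN arm held at most 12 counts per library and could not be tested, and without it 8 were higher. The largest of these was KDM7A at 1.49 ± 0.296 (adjusted p = 0.000206). KMT2C and KMT2D were higher in ACHN shYY1 and lower in HK2 shYY1, and KDM2B and JMJD1C the reverse. In HK2 shYY1 the KMT2C call was lost without shYY1 replicate 3 (adjusted p = 0.098), and the JMJD1C call without shNC replicate 1 or 3 or shYY1 replicate 1 or 2 (adjusted p between 0.0984 and 0.219). The shKDM5C effect was called higher in ACHN for KDM5C and lower for KDM7A and KMT2E, against 5.74% and 6.18%, and without HK2 shKDM5C replicate 1 for 10 and 4 members, against 18.6% and 15.4%. With all replicates, the calls of KDM5C, KDM7A and KMT2E were each lost when single libraries of the other groups were left out (adjusted p up to 0.0557, 0.0945 and 0.112).

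The partners and counterparts of these enzymes were read from 4 lists that hold no members. Of all genes, 62.6% were called in ACHN Dsh and 49.8% in HK2 Dsh. The called share of each list was below that of all genes in ACHN Dsh. In HK2 Dsh it was above for the corepressor, methyltransferase and reader lists and below for the accessory COMPASS subunits. Of 9 accessory COMPASS subunits, 2 were higher and 2 lower in ACHN Dsh, with HCFC1, the host cell factor that joins the SETD1 and KMT2A complexes, at 0.60 ± 0.0445 (adjusted p = 1.04e-09), and 1 higher and 2 lower in HK2 Dsh, with HCFC1 at -0.22 ± 0.0458 (adjusted p = 0.000175). Of 17 subunits of the LSD1 and SIN3 corepressors, 5 were higher and 5 lower in ACHN Dsh and 6 and 6 in HK2 Dsh. RCOR2, a CoREST partner of LSD1, was lower in both (-2.50 ± 0.458 and -1.76 ± 0.444, adjusted p = 0.000107 and 0.00137), from means of 1.02 CPM in ACHN shNC and 1.81 in HK2 shNC. Of 17 other histone methyltransferases, 2 were higher and 5 lower in ACHN Dsh and 5 and 6 in HK2 Dsh. EZH2, which methylates H3K27 and so opposes KDM6B, fell in ACHN Dsh by 0.87 on the log2 scale (adjusted p = 1.88e-11) and in HK2 Dsh by 0.18 (adjusted p = 0.00902). SETD7 rose most of this list in ACHN Dsh (0.83 ± 0.0507, adjusted p = 6.69e-11) and was also higher in HK2 Dsh (0.31 ± 0.0556, adjusted p = 2.03e-05). NSD1, an H3K36 enzyme, was higher in ACHN Dsh (0.34 ± 0.0463) and lower in HK2 Dsh (-0.85 ± 0.093). Of 12 readers of methylated H3K4, 3 were higher and 3 lower in ACHN Dsh and 1 and 6 in HK2 Dsh, with PYGO2 lower in ACHN (-0.48 ± 0.0698) and in HK2 (-0.54 ± 0.0724).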

How the data were processed

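RNA was extracted with TRIzol and sequenced as NEBNext libraries. Per the file headers, the authors counted read pairs per Ensembl release 84 gene (GRCh38) with featureCounts 2.0.1, with no strand option. The submitters' processing notes name HISAT2 2.0.5 and featureCounts 1.5.0-p3. The deposited values are raw counts per gene for each library, with no pooling. Reads that fell in several genes could not be reassigned here.

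Symbols were mapped from Ensembl identifiers, and 4117 of 60675 genes, holding 0.243% of counts, had none. Each comparison was fitted on its own groups with edgeR 4.0.16 (R 4.3.3) by the quasi-likelihood test, after filterByExpr and TMM scaling, and p-values were adjusted by Benjamini-Hochberg across every gene tested. CPM used TMM factors within a line. Scripts were tested on simulated data. Replicate numbers did not pair the libraries (correlations of deviations from -0.0894 to 0.0416). Statistics in full were given to KDM5C, KDM5A, KDM5B, up to 4 members per direction in each knockdown comparison with shNC, and 3 per interaction. Alternatives were DESeq2 1.42.0, other scalings and filters, a joint fit of 4 groups, a replicate block and single libraries left out. The members and lists were chosen with earlier results of these data known. Promoter sequences came from RefSeq (GRCh38.p14). Part of the proximal tubule marker list is not reported here.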

Additional observations from a re-analysis of the deposited data

Results flagged for a closer look

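Effects of the same knockdown that differed between the lines at an adjusted p under 0.05 (edgeR's quasi-likelihood test of the difference itself) are given as the ACHN log2 effect minus the HK2 log2 effect. No cause of these differences was tested.

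For shKDM5C the difference was 1.02 for KDM5C, -1.39 for KDM7A and -0.72 for KMT2E. Without HK2 shKDM5C replicate 1, which stood apart from its group, these were 0.79, -1.12 and -0.44.

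For shYY1 the demethylases below 0 were KDM5B (-0.37), KDM2B (-0.33), JMJD1C (-0.27), KDM4B (-0.26) and KDM4C (-0.52). Those above 0 were KDM3B (0.25), HR (2.75), KDM7A (1.49), PHF2 (0.33) and PHF8 (0.32), and among the KMT2 genes KMT2B (0.40), KMT2C (0.40), KMT2D (0.48) and KMT2E (0.52). The HR value rests on 2 to 12 counts per ACHN library, too few to test HR within ACHN. The KDM4B, KDM4C and PHF8 calls were lost when single libraries were left out (adjusted p up to 0.106, 0.0645 and 0.104).

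For Dsh the demethylases above 0 were KDM5A (0.22), KDM5B (0.23), KDM5C (0.71), KDM2A (0.32), KDM2B (0.22), KDM3A (0.60), KDM3B (0.56), HR (4.40), KDM4B (0.28), KDM6A (0.34), KDM6B (0.71), PHF8 (0.65), KDM8 (1.99) and RIOX1 (0.97). Those below 0 were KDM1B (-1.13), JMJD1C (-0.44), KDM7A (-1.01) and PHF2 (-0.55). Of the H3K4 methyltransferases, KMT2A (0.52), KMT2B (0.63), KMT2D (0.82), SETD1A (0.76) and SETD1B (0.66) were above 0 and KMT2C (-0.30) below. Of the subunits, CXXC1 (0.42) and MEN1 (0.56) were above 0 and ASH2L (-0.32) and DPY30 (-0.48) below. The HR value again includes an ACHN arm of 2 to 12 counts per library that could not be tested. The KDM5A, KDM2B and KDM4B calls were lost when single libraries were left out (adjusted p up to 0.149, 0.217 and 0.104), the KDM5B call without ACHN shNC replicate 3 (0.052), the KDM6A call without ACHN shNC replicate 1 (0.0805) and the ASH2L call without ACHN Dsh replicate 1 (0.0943).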

How the results depend on the processing

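HK2 shKDM5C replicate 1 had the widest effect. With single libraries left out, members higher and lower in HK2 shKDM5C ranged from 0 to 1 and 0 to 4, in HK2 Dsh against shKDM5C from 0 to 7 and 1 to 15, in the HK2 interaction from 0 to 4 and 1 to 9, and in the line difference of shKDM5C from 0 to 10 and 0 to 4. The line difference of shYY1 had 3 to 6 lower. Leaving out single libraries, KDM1A in HK2 shKDM5C ranged from -0.15 to 0.12, and in the line difference of shKDM5C KDM5A ranged from -0.30 to 0.19, KDM5B from -0.26 to 0.22 and JMJD1C from -0.30 to 0.19. The value without HK2 shKDM5C replicate 1 was the lowest for KDM1A and the highest for the other 3. With all 4 groups of a line in 1 fit, members lower in ACHN shYY1 were 4, HK2 shYY1 gave 0 higher and 2 lower, HK2 Dsh 4 and 6, HK2 Dsh against shKDM5C 3 and 7, and HK2 Dsh against shYY1 2 and 7. In the same fit without that replicate, chosen after seeing the data, these HK2 counts were 6 and 9, 8 and 16, 7 and 15, and 11 and 15, with 3 lower in HK2 shKDM5C, where KDM1A was again at -0.15. DESeq2 gave 2 lower in HK2 shKDM5C, 2 higher in HK2 Dsh against shKDM5C, 1 higher in the HK2 interaction and 3 lower in the line difference of shYY1. No filter gave 1 higher in HK2 Dsh against shKDM5C and 2 higher in the HK2 interaction. Total count scaling gave 1 lower in the HK2 interaction and moved the median of all genes in the ACHN interaction to 0.11. RLE scaling gave 1 lower in the line difference of shKDM5C. The replicate block, on numbers that did not pair the libraries, gave 0 lower in HK2 shKDM5C, 1 lower in the HK2 interaction and 0 lower in the line difference of shKDM5C. The causes were not tested. Of values for single members, DESeq2 kept 547 on their side of the threshold and the block 558, and neither reversed any. Depth limits HR in ACHN.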
